A study of Drosophila melanogaster with 10 samples.

Results

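The experiment described here set Drosophila S2 cells that received wild-type Achaete while the histone variant H2A.Z was knocked down against S2 cells that received the R29G form of Achaete under a control knockdown. It holds 4 of the 10 RNA-seq samples of the study, chosen by their labels: 2 libraries labelled H2A.Z knockdown with transfected Ac and Da (called H2A.Z KD Ac WT), and 2 libraries labelled Luc knockdown with transfected AcR29G and Da (called Luc KD Ac R29G). Each of the 2 deposited tables of this set holds 1 library of either group, so the libraries were paired by table. The same tables hold 1 library each of Luc knockdown with transfected Ac and Da (called Luc KD Ac WT), whose values stand beside the others for reference. All of these cells carried transfected Daughterless (Da), and all had been treated with double-stranded RNA, against H2A.Z or, as the control, against Luc. Knockdown and Achaete form differ together between the groups compared, so their effects cannot be told apart in that difference alone. The comparison addresses which of the rises linked to wild-type Achaete are still seen when H2A.Z is depleted.

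Achaete (Ac) is a proneural transcription factor of the basic helix-loop-helix (bHLH) class. It pairs with Daughterless, binds E-box sequences and starts the program by which a cell of the fly epidermis becomes a sensory organ precursor, the mother cell of a bristle and its neuron. R29G names a change of an arginine to a glycine; the study used this form as the counterpart of the wild type. In flies a single gene, His2Av, encodes the H2A.Z-type histone, which the Domino complex, with Arp6 as a subunit, places in nucleosomes near gene starts. S2 cells are an established line from late embryos with hemocyte-like character, that is, not of the neural lineage in which this program normally runs.

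The 6 libraries held between 24500413 and 33712374 reads. Values below are scaled reads, that is, whole reads recovered from the deposited tables and divided by a size factor computed over the 6 libraries. Differences are on the log2(scaled reads + 1) scale, H2A.Z KD Ac WT minus Luc KD Ac R29G, as the mean of the 2 within-table differences. They understate the change of genes with few reads. A gene was called where limma, fitted with the table as a block, gave a Benjamini-Hochberg adjusted p under 0.05 over all 11947 genes with a mean of at least 1 scaled read. The labels do not state whether replicates were separate cultures, so p-values reflect variation among these libraries that could be technical. In bulk RNA, fewer cells with a transcript and less transcript per cell cannot be told apart.

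The knocked-down gene followed its label. His2Av had 1724 and 800 scaled reads in H2A.Z KD Ac WT, against 6524 and 5694 in Luc KD Ac WT and 6131 and 5703 in Luc KD Ac R29G. These are 28.1% and 14.0% of the Luc KD Ac R29G level in the first and second table, and the fall (difference -2.33, SE 0.15, adjusted p 2.17e-08, limma) was called. The depletion was thus deeper in the second table. Transfected ac had 14259 and 26328 scaled reads in H2A.Z KD Ac WT, against 19998 and 21925 in Luc KD Ac R29G, and its difference of -0.11 (SE 0.11) was not called (adjusted p 0.451, limma). That mean hides opposite directions: ac was lower in the first table and higher in the second, and the call depends on the library, since the difference was 0.17 (adjusted p 0.0419) without the first H2A.Z KD library, -0.39 (adjusted p 2.89e-07) without the second, and -0.40 (adjusted p 0.000643) without the second R29G library. da, also transfected, fell: 73606 and 66109 scaled reads in H2A.Z KD Ac WT stood against 115310 and 83570 in Luc KD Ac R29G (difference -0.49, SE 0.07, adjusted p 3.46e-05). The H2A.Z KD libraries thus held 63.8% and 79.1% of the da reads of their Luc KD Ac R29G partners. In Luc KD Ac WT da had 105060 and 93117 scaled reads. The H2A.Z KD libraries held 70.1% and 71.0% of these, a fall that was also called. The part of these da differences in the results below, those from Luc KD Ac WT included, was not tested. Reads of the endogenous and the transfected copy of ac and da cannot be separated.

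Many genes differed between the groups. Of the 11947 genes tested, 2206 were called higher (18.5%) and 2198 lower (18.4%) in H2A.Z KD Ac WT. Most of these differences were small: the median size was 0.40 among the genes called higher and 0.44 among those called lower. A difference above 1 was reached by 337 genes called higher and 287 called lower, and a difference above 2 by 76 and 48. For comparison, Luc KD Ac WT against the same Luc KD Ac R29G libraries gave 48 genes called higher (0.402%) and 26 lower (0.218%; 0.619% in all), and H2A.Z KD Ac WT against Luc KD Ac WT gave 2287 higher (19.1%) and 2190 lower (18.3%). The 2 tables share no library, and across the 9114 genes with a mean of at least 10 scaled reads their differences had Pearson's r = 0.737, and across all 11947 genes tested r = 0.417, a description across genes, which are not independent. The count rests on the pairing and on the spread model: without the table block limma called 240 genes higher and 215 lower (3.81% in all), and without its intensity trend it called 0 in either direction, with 4097 genes at an unadjusted p under 0.05. Without the second R29G library 1454 genes were called higher and 1040 lower. The split rests on the scaling, which moved the median of all genes, 0.01 here, to 0.13 when each library was scaled by its own median, with 3233 genes called higher and 1340 lower.

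**Figure D1:**
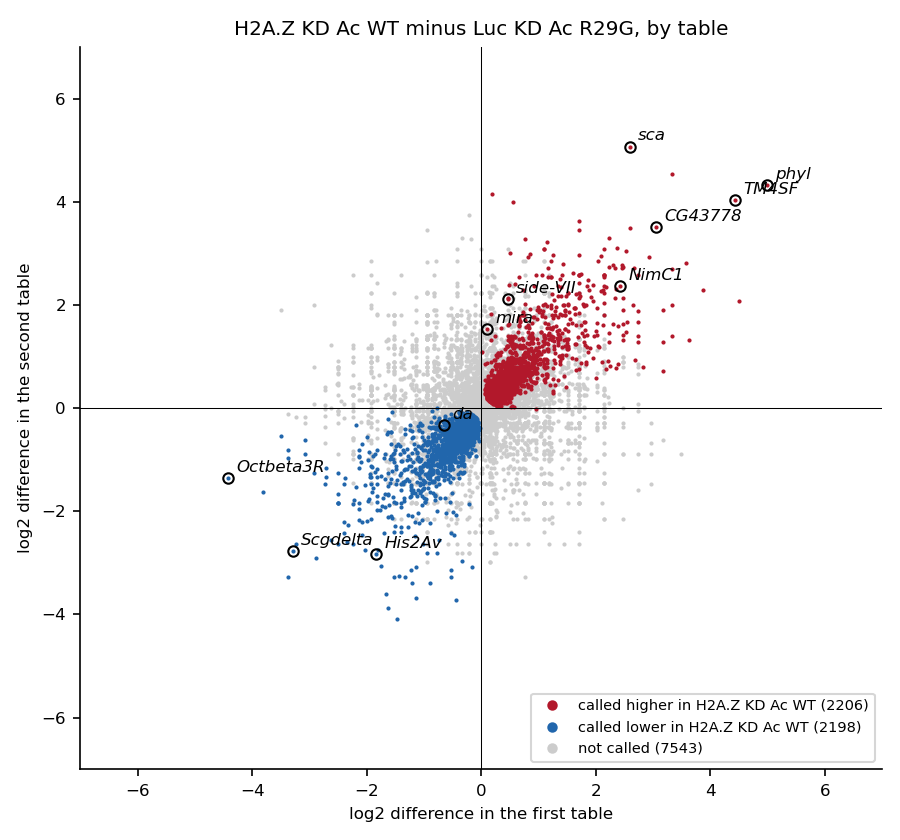
Log2 difference, H2A.Z KD Ac WT minus Luc KD Ac R29G, in the first table (x axis) and in the second table (y axis) for each of the 11947 genes tested; red points were called higher in H2A.Z KD Ac WT, blue points lower, grey points were not called. phyl, TM4SF and CG43778 lie high in both tables and His2Av low in both, whereas mira and side-VII rest mostly on the second table and Octbeta3R is lower in the first table than in the second.

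phyl and sca, 2 genes of the sensory precursor program, had large rises over R29G under H2A.Z knockdown. phyl (phyllopod, 2R 14427336 to 14432337 on BDGP6) encodes an adaptor that directs the transcriptional repressor Tramtrack to degradation in sensory precursors. It had 30.8 and 105 scaled reads in H2A.Z KD Ac WT, 42.8 and 152 in Luc KD Ac WT, and 0 and 4.33 in Luc KD Ac R29G. Both wild-type groups lay above the R29G libraries without overlap, by 4.65 in H2A.Z KD Ac WT (SE 0.35, adjusted p 1.01e-07, limma) and by 5.15 in Luc KD Ac WT (adjusted p 8.60e-07). These 2 differences share the R29G libraries. Set directly against Luc KD Ac WT, phyl in H2A.Z KD Ac WT was lower by an amount that was not called (difference -0.50, SE 0.35, adjusted p 0.286). Without the table block the call of phyl against R29G was narrowly lost (adjusted p 0.0522). In all 3 groups phyl was higher in the second table than in the first.

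sca (scabrous, 2R 12780541 to 12802010), which encodes a secreted protein needed for the regular spacing of precursors, had 135 and 1167 scaled reads in H2A.Z KD Ac WT, 380 and 3346 in Luc KD Ac WT, and 21.5 and 33.7 in Luc KD Ac R29G. The H2A.Z KD libraries stood between the other groups in both tables, with a difference of 3.83 from R29G (SE 0.38, adjusted p 1.51e-06). Of the Luc KD Ac WT level they held 35.4% in the first table and 34.9% in the second, a fall that was called (difference -1.51, SE 0.38, adjusted p 0.005). The rise over R29G was 2.59 in the first table and 5.07 in the second. It was not called without the table block (adjusted p 0.117).

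mira, the adaptor that carries fate determinants into 1 daughter of a dividing neuroblast, rose less, by 0.10 in the first table and 1.54 in the second. It had 42.2 and 127 scaled reads in H2A.Z KD Ac WT, 94.2 and 207 in Luc KD Ac WT, and 39.3 and 43.3 in Luc KD Ac R29G (difference from R29G 0.82, SE 0.27, adjusted p 0.0262). The call was lost without the second H2A.Z KD library (0.35, adjusted p 0.360) and without the second R29G library (0.21, adjusted p 0.680), while the difference was 1.29 without the first H2A.Z KD library and 1.43 without the first R29G library. The fall from Luc KD Ac WT was called (-0.92, adjusted p 0.0137). mira shares bases with Hs6st on the same strand, so its reads are uncertain. nerfin-1, a zinc-finger factor of newly formed neurons, had few reads: 5.70 and 18.6 in H2A.Z KD Ac WT, 4.28 and 33.8 in Luc KD Ac WT, and 0 and 4.33 in Luc KD Ac R29G. Its difference from R29G of 2.31 (SE 0.52, adjusted p 0.00236) was not called by DESeq2.

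**Figure D2:**
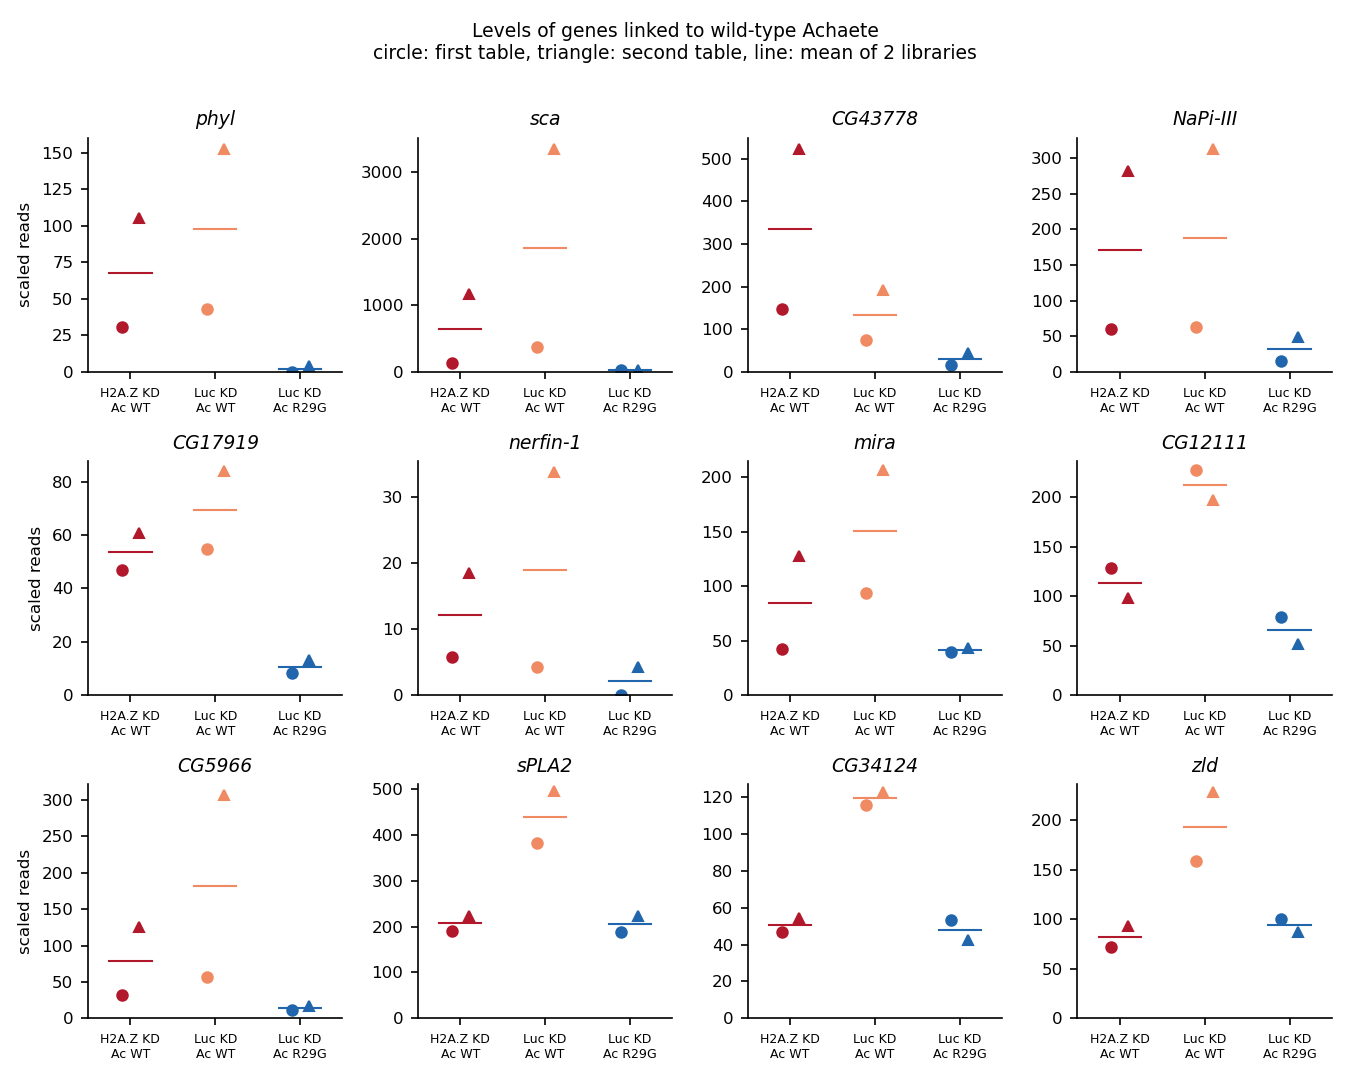
Scaled reads (y axis, linear, from 0) of 12 genes in H2A.Z KD Ac WT, Luc KD Ac WT and Luc KD Ac R29G; circles are libraries of the first table, triangles of the second, and lines the mean of the 2 libraries. phyl, sca, CG43778, NaPi-III and CG17919 stay above the R29G libraries under H2A.Z knockdown, and sPLA2, CG34124 and zld lie at the R29G level (192 and 224 against 188 and 223 scaled reads for sPLA2).

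A list of 21 genes named in an earlier account of these data as higher in Luc KD Ac WT than in Luc KD Ac R29G was then followed. Its members were picked with the same R29G libraries, so the counts describe the list and are not independent evidence. In H2A.Z KD Ac WT 13 of the 21 were called higher than R29G, 2 lower and 6 neither, with a median difference of 1.13, against 0.01 over all genes. The shares of all genes there are 18.5% higher and 18.4% lower. In Luc KD Ac WT 19 were called higher, with a median of 2.55, beside 0.402% of all genes. Set against Luc KD Ac WT, 12 of the 21 were called lower in H2A.Z KD Ac WT and the other 9 were not called (limma; the share of all genes called lower there is 18.3%). Without the table block 1 of the 21, CG17919, kept its call over R29G.

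NaPi-III, RabX5, CG17919 and shg were called higher than R29G, with no called difference from Luc KD Ac WT. NaPi-III, a phosphate transporter gene by name (3L 11123348 to 11134663) had 60.4 and 282 scaled reads in H2A.Z KD Ac WT, 62.5 and 313 in Luc KD Ac WT, and 15.9 and 49.3 in Luc KD Ac R29G. H2A.Z KD Ac WT and Luc KD Ac WT were nearly level in each table, with differences from R29G of 2.18 (SE 0.22, adjusted p 1.74e-06) and 2.28, and a difference between them of -0.10 (SE 0.22, adjusted p 0.765). RabX5, a member of the Rab GTPase family, had 13.7 and 12.4 scaled reads in H2A.Z KD Ac WT, 7.71 and 27.6 in Luc KD Ac WT, and 0 and 1.73 in Luc KD Ac R29G (difference from R29G 3.08, SE 0.56, adjusted p 0.000396, not called by DESeq2).

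CG17919 (3R 6344029 to 6345087) had 46.7 and 60.6 scaled reads in H2A.Z KD Ac WT, 54.8 and 83.9 in Luc KD Ac WT, and 8.42 and 13.0 in Luc KD Ac R29G. All 4 wild-type libraries lay above both R29G libraries, with a difference of 2.24 under H2A.Z knockdown (SE 0.28, adjusted p 1.46e-05) and of -0.34 from Luc KD Ac WT (adjusted p 0.371). The gene overlaps SmD2 on the other strand, and the sources used here do not state whether counting used the strand. shg, which encodes E-cadherin, rose by 0.64 over R29G (SE 0.10, adjusted p 0.000158), beside 0.57 in Luc KD Ac WT.

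CG5966, CG13743, CG12111 and side-VII were called higher than R29G and lower than in Luc KD Ac WT. CG5966 had 31.9 and 126 scaled reads in H2A.Z KD Ac WT, 57.4 and 307 in Luc KD Ac WT, and 11.2 and 17.3 in Luc KD Ac R29G, so it stood between the 2 Luc groups in both tables. Its difference from R29G was 2.11 (SE 0.34, adjusted p 0.000134; 1.32 without the second R29G library) and from Luc KD Ac WT -1.05 (adjusted p 0.0208). CG13743 had 45.6 and 70.5 scaled reads, 57.4 and 211 in Luc KD Ac WT, and 15.9 and 18.2 in Luc KD Ac R29G, with differences of 1.68 (SE 0.33, adjusted p 0.000708) and -0.95 (adjusted p 0.0305). CG12111 had 129 and 97.7, against 228 and 197 in Luc KD Ac WT and 79.5 and 51.9 in Luc KD Ac R29G. Its difference from R29G was 0.80 under H2A.Z knockdown (SE 0.18, adjusted p 0.00198; 0.64 and adjusted p 0.0590 without the second R29G library), beside 1.71 in Luc KD Ac WT. side-VII (difference 1.29, adjusted p 0.0335) was called lower than in Luc KD Ac WT by 1.63 (difference -1.63) and lost its call over R29G without the second R29G library (0.23, adjusted p 0.772), while without the first it was 2.35. CG14312 (1.59, adjusted p 0.0241), at 5.70 and 6.19 scaled reads against 0.935 and 1.73 in R29G, lost its call when any 1 of the 4 libraries was left out, at adjusted p from 0.0597 to 0.132. Its difference from Luc KD Ac WT was not called (-1.20, adjusted p 0.0818). CG14312 overlaps the far more abundant eIF1A on the other strand, so its reads are uncertain.

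Another 4 members lay near the R29G level. sPLA2, a secreted phospholipase A2, had 192 and 224 scaled reads in H2A.Z KD Ac WT, 383 and 495 in Luc KD Ac WT, and 188 and 223 in Luc KD Ac R29G. Within each table the H2A.Z KD and R29G libraries differed by only a few scaled reads (difference 0.02, SE 0.12, adjusted p 0.937), and H2A.Z KD Ac WT was below Luc KD Ac WT by 1.07 (difference -1.07, adjusted p 4.85e-06). CG34124 had 46.7 and 54.4, against 116 and 123 in Luc KD Ac WT and 53.3 and 42.4 in Luc KD Ac R29G. Its difference was 0.08 from R29G (SE 0.22, adjusted p 0.809) and -1.22 from Luc KD Ac WT (adjusted p 0.000423). zld encodes Zelda, the factor that opens chromatin in the early embryo. Its 71.8 and 92.8 scaled reads stood against 158 and 228 in Luc KD Ac WT and 100 and 87.4 in Luc KD Ac R29G (difference from R29G -0.19, SE 0.19, adjusted p 0.477; from Luc KD Ac WT -1.21, adjusted p 0.000131). Tip60, the acetyltransferase of the complex that also deposits H2A.Z, differed by 0.05 from R29G (adjusted p 0.664) and by -0.34 from Luc KD Ac WT (adjusted p 0.00233). sPLA2 and Tip60 overlap more abundant genes, CG11123 on the same strand and tyf on the other, so their reads are uncertain.

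Of the last 4 members, 2 fell below R29G. Hr4, a nuclear receptor of the ecdysone response, had 336 and 508 scaled reads in H2A.Z KD Ac WT, 656 and 984 in Luc KD Ac WT, and 509 and 653 in Luc KD Ac R29G (difference -0.48, SE 0.10, adjusted p 0.000899; adjusted p 0.0515 without the first R29G library). CG17777 had 52.4 and 55.7, against 168 and 142 in Luc KD Ac WT and 90.7 and 74.4 in Luc KD Ac R29G (difference -0.60, adjusted p 0.0241). Its call was lost without the first H2A.Z KD library or either R29G library, with the difference between -0.42 and -0.70. CG42728 and CG31475 had 1 read in each H2A.Z KD library and 0 in each R29G library, too few for a fold. Hr4 overlaps the more abundant PIG-K on the other strand, so its reads are uncertain.

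**Figure D3:**
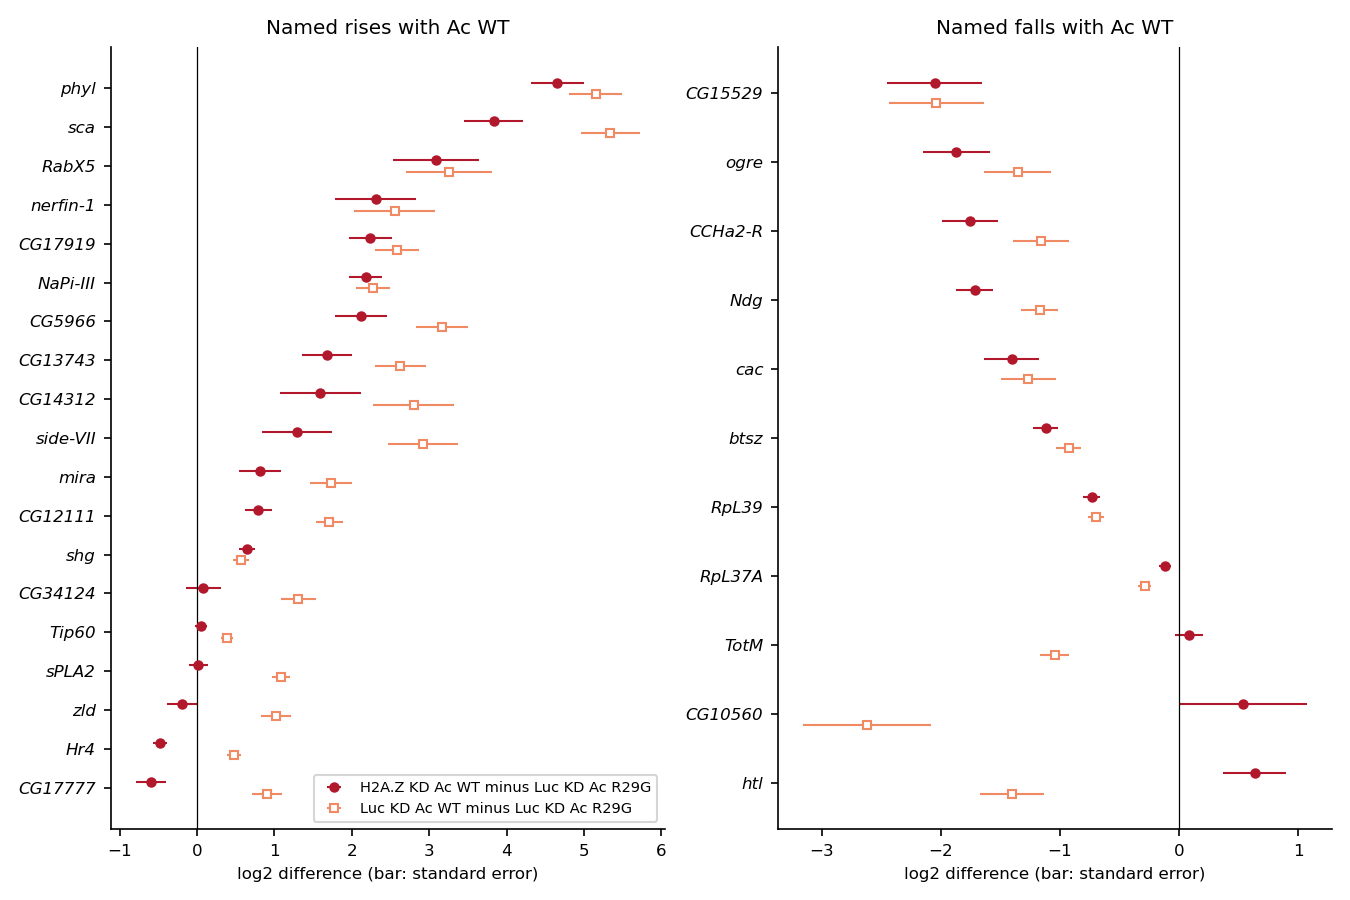
Log2 difference from Luc KD Ac R29G of H2A.Z KD Ac WT (filled circles) and of Luc KD Ac WT (open squares), with standard errors as bars, for the genes named earlier as higher (left) or lower (right) with wild-type Achaete; the R29G libraries are shared, and CG42728 and CG31475, at 0 in R29G, are not drawn. In H2A.Z KD Ac WT phyl, sca, RabX5, nerfin-1, CG17919, NaPi-III and CG5966 lie above 2, whereas sPLA2, Tip60 and CG34124 lie within 0.1 of 0.

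A parallel list of 11 genes was named earlier as lower in Luc KD Ac WT than in Luc KD Ac R29G. In H2A.Z KD Ac WT 7 of the 11 were called lower than R29G (63.6%, beside 18.4% of all genes) and the other 4 were not called, with a median of -1.12. Ndg, which encodes the basement membrane protein nidogen, had 68.4 and 127 scaled reads in H2A.Z KD Ac WT, 111 and 168 in Luc KD Ac WT, and 255 and 374 in Luc KD Ac R29G. The R29G libraries were highest in both tables, and the fall was larger under H2A.Z knockdown (-1.71, SE 0.15, adjusted p 6.02e-07) than in Luc KD Ac WT (-1.17), with a called difference between them of -0.55 (adjusted p 0.0105). btsz, a synaptotagmin-like protein gene, fell by 1.12 (difference -1.12, adjusted p 8.29e-07), beside -0.93 in Luc KD Ac WT. cac, the gene of a presynaptic calcium channel subunit, had a difference of -1.41 (adjusted p 0.000162), CCHa2-R, a peptide receptor gene, of -1.76 (adjusted p 2.72e-05), the innexin gene ogre of -1.87 (adjusted p 8.02e-05), CG15529 of -2.05 (adjusted p 0.000703) and RpL39 of -0.74 (adjusted p 7.00e-07). RpL39 overlaps the more abundant RpL12 on the other strand.

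The 4 that were not called included htl and TotM. htl, a fibroblast growth factor receptor gene, had 50.2 and 177 scaled reads in H2A.Z KD Ac WT, 10.3 and 47.1 in Luc KD Ac WT, and 40.2 and 90.8 in Luc KD Ac R29G. It was highest under H2A.Z knockdown in both tables, above Luc KD Ac WT by 2.03 (adjusted p 1.88e-05) and above R29G by an uncalled 0.63 (SE 0.27, adjusted p 0.0739; called without the first R29G library, 1.03 and adjusted p 0.0314). TotM, a secreted stress-response gene, had a difference of 0.08 from R29G (adjusted p 0.636; 0.38 and adjusted p 0.0175 without the first R29G library) and of 1.13 from Luc KD Ac WT (adjusted p 2.63e-06). CG10560 had 11.4 and 18.6 scaled reads, against 0 and 2.05 in Luc KD Ac WT and 8.42 and 11.2 in Luc KD Ac R29G (difference from R29G 0.54, adjusted p 0.476). RpL37A had a difference of -0.12 from R29G (adjusted p 0.0808).

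Beyond these chosen genes, a list of 32 sensory precursor and proneural target genes was counted, of which 30 were found and 26 tested. In H2A.Z KD Ac WT 11 of the 26 were called higher than R29G, 3 lower and 12 neither; the shares among all genes are 18.5% higher and 18.4% lower. The list's median difference was 0.16, against 0.01 over all genes. In Luc KD Ac WT 3 were called higher, phyl, sca and mira, with a median of 0.06. Without the table block 1 of the 26, cpo, was called higher. The proneural follow-on factors sens and seq had 0 reads in all 6, and the proneural genes sc and l(1)sc were under the filter.

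cpo (couch potato), an RNA-binding protein gene active in sensory precursors, had 2412 and 2130 scaled reads in H2A.Z KD Ac WT, against 1479 and 1040 in Luc KD Ac WT and 1296 and 894 in Luc KD Ac R29G. The knockdown libraries were highest and the 2 Luc groups close to each other, with a difference of 1.07 from R29G (SE 0.08, adjusted p 1.68e-07) and of 0.87 from Luc KD Ac WT (adjusted p 1.09e-06). Of the remaining 7 members called higher, 6 are given here, with differences between 0.21 and 0.49: ham, a zinc-finger factor that decides between sensory organ cell fates, 0.49 (adjusted p 0.000178); insc, an adaptor of spindle orientation, 0.41 (adjusted p 0.0126); stg, the Cdc25 phosphatase of mitotic entry, 0.39 (adjusted p 0.000199); neur, a ubiquitin ligase for Notch ligands, 0.33 (adjusted p 0.000985); edl, 0.32 (adjusted p 0.000973); and cv-c 0.21 (adjusted p 0.00523). The call of insc was lost without the second library of either group (0.20 and 0.33; 0.62 without the first H2A.Z KD library) and that of cv-c without the first R29G library (adjusted p 0.0877). In Luc KD Ac WT these 6 genes lay within 0.13 of R29G on the log2 scale. insc overlaps sktl, which has more reads, and neur overlaps hyx, which has nearly as many.

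Members called lower were nvy, Dl and dap. nvy, the fly relative of the MTG corepressors, had 2600 and 3944 scaled reads in H2A.Z KD Ac WT, 4446 and 5855 in Luc KD Ac WT, and 5342 and 4938 in Luc KD Ac R29G (difference -0.68, SE 0.11, adjusted p 0.000122; -0.45 without the first H2A.Z KD library and -0.38 without the first R29G library). Dl, the gene of the Notch ligand Delta, had 11.4 and 16.1, against 31.7 and 71.6 in Luc KD Ac WT and 26.2 and 39.8 in Luc KD Ac R29G. It was lowest under H2A.Z knockdown in both tables (difference from R29G -1.19, SE 0.32, adjusted p 0.0069; adjusted p 0.0795 without the first R29G library). dap, an inhibitor of Cyclin E and Cdk2, had a difference of -0.26 (adjusted p 0.00959), and lost its call without either R29G library (-0.27, adjusted p 0.0688, and -0.24, adjusted p 0.131). Of the members not called, the largest differences were those of qua (-0.59, adjusted p 0.0981), tx (0.38, adjusted p 0.485), spdo (0.35, adjusted p 0.0981) and Brd (-0.34, adjusted p 0.776), the last at no more than 3 scaled reads in any library. spdo overlaps the more abundant PH4alphaEFB on the same strand, so its reads are uncertain.

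Among 27 tested neuroblast and temporal factors 5 were called higher and 1 lower, with a median of 0.19; the share called higher, 18.5%, equals that of all genes. The 5 included mira, insc and nerfin-1, described above, and pros, the homeodomain factor that moves daughters of neuroblasts towards differentiation. pros had 27.4 and 34.6 scaled reads in H2A.Z KD Ac WT, 33.4 and 39.9 in Luc KD Ac WT, and 13.1 and 14.7 in Luc KD Ac R29G. Both wild-type groups lay above R29G without overlap, by 1.10 under H2A.Z knockdown (SE 0.31, adjusted p 0.0115, limma). In Luc KD Ac WT the difference of 1.33 was not called (adjusted p 0.0744, limma). The call under H2A.Z knockdown was lost without the second H2A.Z KD library (1.03) and without the first or second R29G library (1.16 and 1.03). Of 37 tested neuronal differentiation genes 11 were called higher (29.7%, beside 18.5% of all genes) and 4 lower (10.8%, beside 18.4%), with a median of 0.10. Sh, which encodes the Shaker potassium channel, had 34.2 and 66.8 scaled reads, 33.4 and 57.3 in Luc KD Ac WT, and 14.0 and 22.5 in Luc KD Ac R29G (difference from R29G 1.38, SE 0.28, adjusted p 0.00112; Luc KD Ac WT 1.25, adjusted p 0.0607). The pan-neuronal genes elav and nSyb, at 526 and 703 and at 21.7 and 16.1 scaled reads, had differences of 0.12 (adjusted p 0.359) and 0.11 (adjusted p 0.851).

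Signalling genes around the precursor were called in either direction. In the Notch core list 5 of 21 tested genes were called higher (23.8%, beside 18.5% of all genes) and 4 lower (19.0%, beside 18.4%), with a median of -0.01 whose sign depends on the scaling (0.12 when each library was scaled by its own median). The receptor gene N had 14449 and 11977 scaled reads in H2A.Z KD Ac WT, against 16737 and 15608 in Luc KD Ac R29G (-0.30, adjusted p 0.00108; -0.19 without the second H2A.Z KD library), and the ligand gene Ser 1000 and 768, against 741 and 529 (0.48, adjusted p 0.000357). Of 12 tested E(spl) and Bearded genes, the direct targets of Notch, 1 was called higher and 1 lower (8.33% each, below the shares of all genes). The gene called lower was E(spl)m6-BFM, with 1.14 and 1.24 scaled reads in H2A.Z KD Ac WT, 5.14 and 5.12 in Luc KD Ac WT, and 12.2 and 12.1 in Luc KD Ac R29G (difference -2.59, SE 0.54, adjusted p 0.0013, not called by DESeq2). In the EGF receptor list 6 of 21 were called higher (28.6%) and the other 15 were not called (median 0.13). Under quantile normalization 3 were called higher and 1 lower (median 0.02), and with each library scaled by its own median 15 higher (median 0.25). The 6 called members had differences of at most 0.73, reached by the ligand gene vn (adjusted p 0.0127; lost without the first H2A.Z KD library or the second R29G library, at adjusted p 0.0716 and 0.144). Among 22 tested bHLH factors and partners 3 were called higher and 3 lower (13.6% each, below the shares of all genes). The lower ones were da, emc and Max, of which Max overlaps Bet1, which has more reads, on the other strand. emc (-0.23) lost its call without the second H2A.Z KD library or either R29G library, at adjusted p from 0.0540 to 0.0954, and Max (-0.36) without the second H2A.Z KD library (-0.21, adjusted p 0.0710) or the second R29G library (-0.22, adjusted p 0.229).

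The genes of the H2A.Z deposition complex were called lower more often than higher, with a median of -0.18. Of 18 members 9 were called lower (50%, beside 18.4% of all genes) and 2 higher (11.1%, beside 18.5%). The 9 include His2Av, the target of the knockdown, whose fall the design set in advance. The 2 called higher were dom, the gene of Domino itself, and Act5C. dom had 18374 and 19209 scaled reads in H2A.Z KD Ac WT, against 15864 and 16394 in Luc KD Ac R29G. Without His2Av the called falls were modest, from -0.22 in pont and rept, the AAA ATPase subunits, to -0.50 in Gas41 (adjusted p 0.00144; 0.0518 without the second R29G library). Leaving out either R29G library ended the calls of pont (adjusted p 0.108 and 0.172), rept (0.165 and 0.0907) and MRG15 (0.0887 and 0.299), and leaving out the second that of DMAP1 (0.143). Brd8 had 2064 and 1811 scaled reads in H2A.Z KD Ac WT, against 2551 and 2630 in Luc KD Ac R29G (-0.42, SE 0.07, adjusted p 0.000154). YL-1, the H2A.Z-binding subunit, fell by 0.34 (difference -0.34, adjusted p 0.00334; 0.0647 without the second R29G library), while Arp6 differed by 0.03 (adjusted p 0.793). Scaling each library by its own median left 6 of the 18 called lower.

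The largest changes lay mostly outside the neural lists. By a rule on size, level and non-overlap, the 12 largest rises were phyl, TM4SF, lncRNA:CR44948, sca, CG43778, lectin-24Db, CG43191, vas, atilla, CG10764, CG43886 and NT5E-2, with differences between 2.62 and 4.65; 54.6% of all genes tested had groups that did not overlap. TM4SF, a tetraspanin gene, had 121 and 171 scaled reads in H2A.Z KD Ac WT, 7.71 and 6.14 in Luc KD Ac WT, and 4.67 and 9.52 in Luc KD Ac R29G (difference 4.23, SE 0.37, adjusted p 5.04e-07). Unlike phyl and sca, it lay low in both Luc groups. The same held for the 8 genes of the 12 other than phyl, sca, CG43778 and TM4SF, whose Luc KD Ac WT differences from R29G were between -0.55 and 0.56 and not called. CG10764, for example, had 369 and 463 scaled reads, against 47.1 and 57.3 in Luc KD Ac WT and 57.0 and 70.1 in Luc KD Ac R29G (2.69, SE 0.17, adjusted p 2.13e-08). NT5E-2, a nucleotidase gene by name, had 309 and 768, against 50.5 and 93.1 in Luc KD Ac WT and 55.2 and 112 in Luc KD Ac R29G (2.62, SE 0.17, adjusted p 2.13e-08).

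Among the 12 largest rises, CG43778 (2L 13301814 to 13331121) stood apart in that both groups with wild-type Achaete were called above R29G and H2A.Z KD Ac WT was the higher. Other genes with this order are given at the end. It had 147 and 523 scaled reads in H2A.Z KD Ac WT, 75.4 and 191 in Luc KD Ac WT, and 16.8 and 45.0 in Luc KD Ac R29G. The order was the same in both tables, with differences from R29G of 3.28 (SE 0.19, adjusted p 1.04e-08) and 2.08 (adjusted p 3.35e-05), and of 1.20 between the wild-type groups (adjusted p 0.000134).

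The 12 largest falls were those of Scgdelta, Octbeta3R, CG10185, Lip3, Vajk4, trk, Root, His2Av, SmydA-3, CG3457, CG4594 and NimC2, with differences between -2.15 and -3.03. Scgdelta, the delta-sarcoglycan gene (X 1735945 to 1754065), had 6.84 and 16.1 scaled reads in H2A.Z KD Ac WT, 53.1 and 69.6 in Luc KD Ac WT, and 75.7 and 116 in Luc KD Ac R29G (difference -3.03, SE 0.28, adjusted p 6.89e-07). CG10185 had 52.4 and 63.1, against 181 and 231 in Luc KD Ac WT and 302 and 395 in Luc KD Ac R29G (-2.57, SE 0.15, adjusted p 9.76e-09). For both genes the Luc KD Ac WT libraries also lay below R29G in each table, by differences that were not called for Scgdelta (-0.62, adjusted p 0.687). Octbeta3R had 1.14 and 9.90 scaled reads in H2A.Z KD Ac WT, 39.4 and 0 in Luc KD Ac WT, and 44.9 and 26.8 in Luc KD Ac R29G, so it fell in both tables (-4.42 and -1.35) while Luc KD Ac WT was uneven. Its difference of -2.89 was -0.20 (adjusted p 0.822) without the first H2A.Z KD library, -5.58 without the second, and not called without the second R29G library (-2.50, adjusted p 0.104); in such a fit the Luc KD Ac WT libraries carry part of the table difference. Vajk4 was not called without the second R29G library (-1.68, adjusted p 0.0701), and Root, the gene of the ciliary rootlet protein, was at -1.42 without the second H2A.Z KD library. Overlap with more abundant genes on the other strand makes TM4SF (CG4882), CG43191 (CG8321), vas (vig), CG10185 (msps), trk (Mulk), Root (GatB) and SmydA-3 (porin) uncertain.

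**Figure D4:**
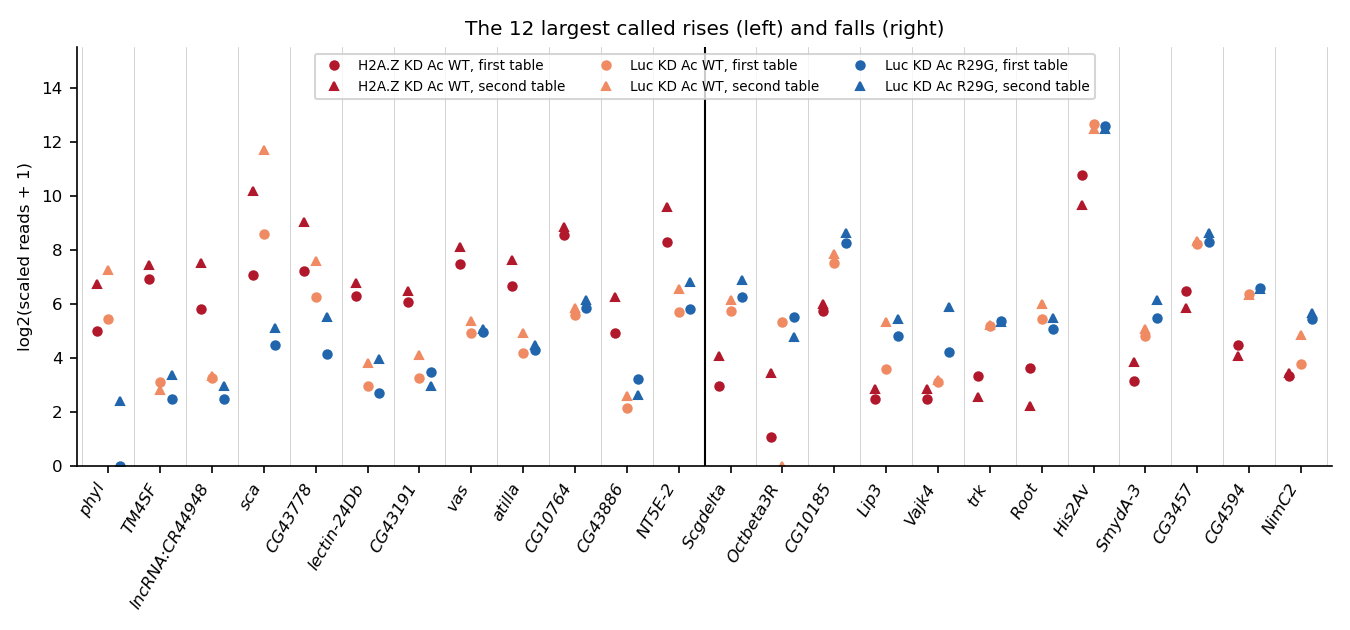
Log2(scaled reads + 1) of the 12 largest called rises (left of the line) and falls (right) in H2A.Z KD Ac WT, Luc KD Ac WT and Luc KD Ac R29G, each library drawn, circles from the first table and triangles from the second. Luc KD Ac WT sits with H2A.Z KD Ac WT for phyl and above it for sca, and with Luc KD Ac R29G for TM4SF, CG10764, NT5E-2 and His2Av.

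Hemocyte genes, the resident program of S2 cells, moved with the comparison. Of 29 tested hemocyte markers 19 were called higher (65.5%) and 2 lower (6.90%) in H2A.Z KD Ac WT, with a median of 0.31. The shares of all genes are 18.5% and 18.4%. Without the table block 4 hemocyte markers were called higher. NimC1, a phagocytosis receptor gene, had 2053 and 2099 scaled reads in H2A.Z KD Ac WT, 344 and 343 in Luc KD Ac WT, and 381 and 407 in Luc KD Ac R29G. The mean of the knockdown libraries was 5.28-fold that of R29G (difference from R29G 2.40, SE 0.09, adjusted p 5.82e-11). Sr-CIV, a scavenger receptor gene, rose by 2.03 (adjusted p 2.64e-06), He by 0.91 (adjusted p 2.91e-07), eater by 0.65 (adjusted p 1.07e-06) and Hml by 0.52 (adjusted p 9.07e-06). NimC2 (-2.15, adjusted p 0.000216) and Ndg, described above, were the 2 members called lower. In Luc KD Ac WT 1 hemocyte marker, Ndg, was called lower than R29G and the others were not called. The summed level of the list was 1119700 and 831900 scaled reads in H2A.Z KD Ac WT, 881600 and 700600 in Luc KD Ac WT, and 929940 and 759050 in Luc KD Ac R29G, and the part of this shift in the other results was not tested.

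Lists of related character went the same way. The shares below stand beside 18.5% of all genes called higher and 18.4% lower. Of 11 crystal cell and lamellocyte markers 6 were called higher (54.5%) and 1, PPO3, lower (9.09%). The lamellocyte surface gene atilla had 101 and 194 scaled reads in H2A.Z KD Ac WT, against 18.7 and 21.6 in Luc KD Ac R29G (2.74, SE 0.28, adjusted p 1.83e-06). Of 31 innate immunity genes 13 were called higher (41.9%) and 3 lower (9.68%), with a median of 0.37. The recognition protein gene PGRP-SA had 268 and 286 scaled reads, against 166 and 188 (0.64, adjusted p 0.00364). Without the second R29G library its difference was 0.54 and not called. The 3 called lower were pll (-0.30, adjusted p 0.00526, limma), tub (-0.18, adjusted p 0.0396) and Myd88. Myd88 had 839 and 834 scaled reads, against 1062 and 1062. The call of pll was lost without the second R29G library. That of tub was lost without the second H2A.Z KD library, either R29G library or either Luc KD Ac WT library. Of 22 tested heat shock and ER stress genes 16 were called higher (72.7%) and 2 lower (9.09%), with a median of 0.32. Hsc70-3, the ER chaperone BiP, was at 0.83 (SE 0.06, adjusted p 3.88e-08) and Pdi, the disulfide isomerase, at 0.60 (adjusted p 4.22e-07). The 2 called lower were Hsp70Bb and Atf6. Hsp70Bb was at -0.58 (adjusted p 0.000236, limma), and at -0.29 without the first R29G library. Atf6 had 1320 and 970 scaled reads in H2A.Z KD Ac WT, against 1662 and 1589 in Luc KD Ac R29G. Among 30 cell cycle genes 16 were called higher (53.3%) and 1 lower (3.33%). tum rose by 0.63 (adjusted p 5.45e-06), pav by 0.54 (adjusted p 7.41e-06) and CycB by 0.53 (adjusted p 5.15e-06), all with roles in mitosis or cytokinesis. The medians of the hemocyte, stress and cell cycle lists stayed above 0 under all scalings tried, at 0.11 or more. Under quantile normalization 12 hemocyte and 8 stress genes were called higher. In Luc KD Ac WT against R29G, 0 members of the crystal cell, immunity, stress and cell cycle lists were called higher (0.402% of all genes). Called lower there were 1 crystal cell and lamellocyte marker and 1 immunity gene. Against Luc KD Ac WT, H2A.Z KD Ac WT had 8 crystal cell and lamellocyte, 12 immunity, 17 stress and 17 cell cycle genes higher. Called lower were 1, 2, 2 and 3. The shares of all genes there are 19.1% and 18.3%.

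Germline and piRNA genes split: 3 of 15 tested were called higher (20%, beside 18.5% of all genes) and 5 lower (33.3%, beside 18.4%). vas, a germline RNA helicase gene, had 178 and 277 scaled reads in H2A.Z KD Ac WT, against 29.9 and 32.9 in Luc KD Ac R29G (2.78, SE 0.23, adjusted p 2.47e-07). piwi had 200 and 358, against 47.7 and 48.4 (2.45, SE 0.22, adjusted p 6.31e-07), and its partner in piRNA silencing aub had 1158 and 851, against 2442 and 2680 (-1.36, SE 0.11, adjusted p 1.58e-07). Each of these 3 overlaps a more abundant gene, vig, SCAR or TTLL4A. Among markers of other tissues, 3 of 15 muscle markers (20%), 3 of 13 glial markers (23.1%), 5 of 15 epithelial markers (33.3%) and 1 of 13 fat body markers (7.69%) were called higher, beside 18.5% of all genes. Called lower were 0 muscle, 1 glial, 1 epithelial and 1 fat body marker, beside 18.4% of all genes. The fat body gene Fbp2 was at -1.39 (adjusted p 0.0117, limma) and the glial gene wrapper at -1.28 (adjusted p 0.0108, limma). Without the first H2A.Z KD library these were -0.83 and -0.77. Under quantile normalization 3 epithelial markers were called higher and 3 lower. The muscle gene Mhc had 44.5 and 24.7 scaled reads, against 22.4 and 22.5 (0.54, adjusted p 0.207), the glial factor repo 73.0 and 95.3, against 72.9 and 66.6 (0.26, adjusted p 0.378), and Lsp1alpha, a fat body storage protein, had 0 in every library.

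Position and level also divided the calls. Of 1991 X-linked genes 23.9% were called higher and 12.2% lower, with a median difference of 0.09, and of 102 genes on chromosome 4 23.5% and 7.84%, with a median of 0.13. On 2L, 2R, 3L and 3R between 15.8% and 19.2% were called higher and between 18.2% and 20.8% lower, with medians between -0.02 and 0.02. In Luc KD Ac WT against R29G the medians were -0.03 for X and -0.005 for chromosome 4. In H2A.Z KD Ac WT against Luc KD Ac WT they were 0.11 and 0.14. In H2A.Z KD Ac WT against R29G the medians of X and chromosome 4 lay above those of the other 4 arms under every scaling tried. X was at 0.05 with TMM and 0.21 when each library was scaled by its own median. Genes of a chromosome are not independent of each other. With the genes tested split into 4 sets of equal size by mean level, 39.6% of the top set were called higher and 14.7% lower, and of the set just above the middle 37.7% were called lower and 16.7% higher. Level was computed from the same 6 libraries, and its part in the calls was not tested.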

How the data were processed

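RNA-seq of transfected S2 cells was deposited as processed tables. The values the authors deposited are a signal: read counts per feature divided by 1 factor per library, as every value in the 2 tables used is a whole multiple of the smallest value of its column (100% within 0.001). Partek and BDGP6 appear in the submitters' processing notes with no role; neither note nor header names an aligner, a counter or the use of strand. Per the labels' protocols, libraries came from total RNA with either of 2 library kits, which library with which kit not being stated. Columns name the group and no replicate number; the Luc knockdown columns with wild-type Achaete were assigned to this set because they share tables with the R29G group.

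Whole reads were recovered, and the 6 libraries were rescaled together by median-of-ratios factors. Of 23932 features, 17869 genes were kept and 6063 other features left out. Genes with a mean of at least 1 (11947) were fitted with limma 3.58.1 in R 4.3.3 on log2(value + 1), with a trend of the spread on intensity, the table as block and Benjamini-Hochberg adjustment at 0.05. The Luc KD Ac WT libraries entered the size factors, the filter and the estimate of the spread, and, where another library was left out, also the table term. The fit had 2 residual degrees of freedom per gene beside 14.1 prior degrees of freedom, which limma estimated across genes. The table pairs the libraries: deviations from group means correlated at 0.575 between H2A.Z KD Ac WT and Luc KD Ac R29G, 0.622 between H2A.Z KD Ac WT and Luc KD Ac WT, and 0.645 between Luc KD Ac WT and Luc KD Ac R29G, over 9114 genes. Alternatives were other scalings, pseudocounts of 0.5 and 4, other filters, no trend, no block, leaving out each library, and edgeR 4.0.16 and DESeq2 1.42.0 on the recovered counts. The fits were also run on simulated data in which each gene's table effect was the same in every group. That setting favours the table block, so the run does not test the calls made here.

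Named were the 12 largest called rises and falls with a mean of at least 20 over the 4 libraries, the same direction in both tables and groups that did not overlap; ac, da, His2Av and Arp6; the rises and falls of an earlier account; up to 4 called members per list; every called sensory precursor gene but 1, which is not reported here; and the 4 such genes with the largest uncalled difference. Other genes, among them N, emc, pont, rept, He, eater, Hml, elav, nSyb, Mhc, repo and Lsp1alpha, were named after their values were seen or as defining markers. The comparison, the members and the 21 gene lists were chosen with earlier results of these data known. Coordinates are those of the files; 17769 of the 17869 genes had the same ones in the BDGP6 reference annotation. Promoter motifs and sequences were not analysed here.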

Additional observations from a re-analysis of the deposited data

How the results depend on the processing

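The number of genes called higher in H2A.Z KD Ac WT was 2206, and it was 240 without the replicate block, 0 without the intensity trend (4097 genes in either direction at an unadjusted p under 0.05) and 1454 to 2245 with 1 library left out. The number called lower was 2198, and it was 215 without the block, 1340 with each library scaled by its own median, 0 without the trend and 1040 to 2486 with 1 library left out. edgeR called 2237 higher and 2363 lower, and DESeq2 1703 and 1482. Sensory precursor genes called higher numbered 11, and 1 without the block, 0 without the trend and 9 to 12 with 1 library left out. Of the 120 named genes, 73 lost their call without the block, 104 without the trend and 17 with DESeq2; the causes were not tested. Signs turned for ac (0.0132) and RpL37A (0.00575) when each library was scaled by its own median, for Arp6 (-0.00818) and sPLA2 (-0.0242) with TMM and for CG34124 (-0.0120) with quantile normalization, none of them called. With 1 library left out the difference ranged from -0.40 to 0.17 for ac, -1.14 to 0.45 for Brd, -0.0495 to 0.113 for Arp6, -0.0358 to 0.134 for Tip60, -0.22 to 0.38 for TotM, -0.0263 to 0.0579 for sPLA2, -0.15 to 0.32 for CG34124, -0.51 to 0.13 for zld, -0.0555 to 0.76 for spdo and -0.18 to 0.95 for tx. A lone library of a group was assumed there to vary like the other groups. With 2 libraries a side, genes at a few reads, such as nerfin-1, RabX5 and CG14312, are the least certain, and intervals from read counts would cover counting error only.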

Other observations

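Other genes called higher in Luc KD Ac WT than in Luc KD Ac R29G fell into the same kinds; those named here were chosen after their values were seen, and both differences share the R29G libraries. CG17290 had 219 and 654 scaled reads in H2A.Z KD Ac WT, 69.4 and 191 in Luc KD Ac WT, and 38.3 and 96.9 in Luc KD Ac R29G. Like CG43778, it was highest under H2A.Z knockdown in both tables, with a difference from R29G of 2.61 (SE 0.16, adjusted p 1.41e-08, limma), beside 0.91 in Luc KD Ac WT (adjusted p 0.0128). lncRNA:CR44568 (2.11 under H2A.Z knockdown, beside 0.98 in Luc KD Ac WT), CG16820 (1.70, beside 0.71) and CG6218 (1.18, beside 0.71) had the same order of groups, and each was called higher than in Luc KD Ac WT. hig, whose product lies in the synaptic cleft, had 30.8 and 91.5 scaled reads in H2A.Z KD Ac WT, 42.0 and 117 in Luc KD Ac WT, and 14.0 and 24.2 in Luc KD Ac R29G (1.48 from R29G, adjusted p 0.000591; -0.39 from Luc KD Ac WT, adjusted p 0.302). CG6218 and hig overlap more abundant genes on the other strand, Sra-1 and Cyp4p1, so their reads are uncertain.

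bib, which encodes the neurogenic membrane channel Big brain, had 142 and 429 scaled reads in H2A.Z KD Ac WT, 218 and 753 in Luc KD Ac WT, and 154 and 389 in Luc KD Ac R29G (0.01 from R29G, adjusted p 0.949; -0.71 from Luc KD Ac WT, adjusted p 0.000369). Among transcript classes, 81 of 992 noncoding RNA genes tested were called higher (8.2%) and 54 lower (5.4%). Of 161 small nucleolar RNA genes 10 were called higher (6.2%) and 0 lower. Of 10630 protein-coding genes 2094 were called higher (19.7%) and 2136 lower (20.1%). The shares of all genes are 18.5% higher and 18.4% lower. In the set of genes with the lowest mean level, 3.2% were called higher and 2.0% lower. The part of level in the shares of these classes was not tested.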
